A study of Bos taurus with 12 samples.

Results

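A set of 10 genes of protein folding in the endoplasmic reticulum was followed across 12 RNA sequencing libraries of cattle (Bos taurus) precursor adipocytes. They were HSPA5, HSP90B1, CALR, CANX, PDIA3, PDIA4, PDIA6, CRELD2, MANF and SERP1, chosen by name, and all 10 were found among the 29240 genes of the count table. The cells had been transfected 48 h before collection and formed 4 groups of 3 libraries. The si group was an interference transfection whose target the labels do not name, and si_NC was its negative control. The OE group received a pcDNA3.1 plasmid with the coding sequence of HGFAC, the secreted protease that activates hepatocyte growth factor, and OE_NC received the pcDNA3.1 negative control. In pcDNA3.1 a viral promoter drives the insert in whichever cells take up the plasmid. All groups therefore share transfection. Since no label ties the replicates to independent cultures, the spread that p-values rest on is that of these libraries and may be technical.

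The endoplasmic reticulum is where secreted and membrane proteins fold. HSPA5, also known as BiP, binds unfolded chains and holds the stress sensors inactive, and when unfolded chains accumulate the sensors start the unfolded protein response, which raises transcription of many folding genes. Preadipocytes are matrix-secreting stromal cells, and they depend on this machinery for collagens and other secreted proteins. The 10 genes divide by role into the Hsp70 and Hsp90 chaperones (HSPA5, HSP90B1), the lectin chaperones of glycoproteins (CALR, CANX), the disulphide isomerases (PDIA3, PDIA4, PDIA6), the small stress-induced lumenal proteins (CRELD2, MANF) and SERP1, a small membrane protein that associates with the translocon.

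Counts assigned to genes summed to between 28944733 and 42703663 per library. HGFAC, the check of the OE label, stood at 138 to 189.6 CPM (counts scaled to a common library size) in OE. It stood at 0.273 to 0.935 CPM in the other 9 libraries, levels too low to check the labels of their groups. Stromal markers were present, with means over the 12 libraries of 381 CPM for CD44 and 275 CPM for PDGFRA, whereas the preadipocyte markers DLK1 and CD34 were near 0 (0.0699 and 0.0286 CPM). Of 6 fat cell markers, which summed to 18.2 to 31.3 CPM, ADIPOQ was near 0 at 0.06 CPM, while LPL averaged 15.9 CPM, close to the stromal marker THY1 at 16.004 CPM, and FABP4 7.08 CPM. Endothelial and epithelial markers were low, with VWF at 1.47 and CDH1 at 0.446 CPM the highest of their lists. PECAM1 stood at 0.365 and EPCAM at 0.0329 CPM. Immune markers summed to 6.89 to 9.54 CPM, with CD68 highest at 4.40, CD163 at 2.41 and PTPRC at 0.0283 CPM. Plasma cells, which are rich in these chaperones, were represented by 4 markers, of which the plasma cell gene MZB1 was at 0 in 9 of 12 libraries and SDC1, which stromal cells also express, stood at 49.3 CPM. Some marker sums did not overlap between groups: muscle markers, mainly ACTA1, summed to 14.3 to 17.99 CPM in OE_NC against 9.16 to 10.5 in OE and 7.74 to 9.77 in si_NC. In si they summed to 11.1 to 15.8 CPM, also above si_NC, and epithelial markers to 0.843 to 1.17 CPM in si against 0.276 to 0.707 in si_NC. Stromal markers summed to 858 to 938 CPM in si against 799.9 to 838 in si_NC, and to 825 to 854 in OE against 864 to 929.7 in OE_NC. Plasma cell markers, mainly SDC1, summed to 56.9 to 61.3 CPM in OE against 44.7 to 54.8 in OE_NC. Marker CPM were scaled to library totals alone, without the scaling between libraries that was used for HGFAC and the 10 genes. Whether the marker sums overlap under that scaling was not tested. The part of these markers in the results below was not tested either.

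Per length of transcript, the 10 genes spanned a wide range of levels. The unit is RPKM, reads per kilobase of exon scaled to the library total, as deposited by the authors, and values are means over 12 libraries with the lowest and highest library. CALR, the calcium-binding lectin chaperone calreticulin, was highest at 2815 RPKM (2406 to 3337), which placed it 12th among 16300 tested genes. HSP90B1, the Hsp90 of the endoplasmic reticulum, followed at 1932 RPKM (1536 to 2460.4) and place 22. CANX, the membrane-bound lectin chaperone calnexin, stood at 491 RPKM (426 to 536), and HSPA5 at 375 RPKM (320.4 to 421). PDIA3, the isomerase that works on glycoproteins with CALR and CANX, stood at 302 RPKM (253 to 381). MANF, a secreted protein that protects stressed cells and binds HSPA5, stood at 229 RPKM (130.4 to 287). PDIA4 and PDIA6, further isomerases of the lumen, were alike at 69.5 and 68.6 RPKM, and PDIA4 was the higher of the pair in 6 of 12 libraries. The lowest were SERP1 at 24.9 RPKM (6.97 to 41.4) and CRELD2 at 13.1 RPKM (7.19 to 26.4), against a median of 2.94 RPKM over all tested genes. Other neighbours in this order kept their places in 10 to 12 of 12 libraries. CRELD2 and SERP1 also varied most, with highest over lowest normalised CPM of 3.71 and 5.93, against 1.27 for HSPA5 and 1.35 for CANX.

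The count table places CALR and CANX on chromosome 7 (12618114 to 12621944 and 1607057 to 1640391, both on the minus strand), HSPA5 and PDIA6 on chromosome 11 (96115158 to 96119474, minus, and 86859610 to 86882949, plus), and HSP90B1 and CRELD2 on chromosome 5 (67600075 to 67618814 and 119312478 to 119319448, both plus). SERP1 lies on chromosome 1 (117598268 to 117600552, plus), PDIA4 on 4 (112198598 to 112215554, minus), PDIA3 on 21 (55370251 to 55392459, plus) and MANF on 22 (49379788 to 49383627, minus). The genome build of these coordinates is not given in the sources used here, and counts cover the exons of each gene. PDIA3 shares 176 of 1936 exon bases with CATSPER2, PDIA4 shares 140 of 2376 with LOC100336368 and PDIA6 shares 56 of 2376 with ATP6V1C2, each on the opposite strand. Those partners held 3337, 2855 and 39 counts over the 12 libraries, against 246814, 69429 and 68665 for the members, and the other 7 genes share no exon base with another gene.

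**Figure D1:**
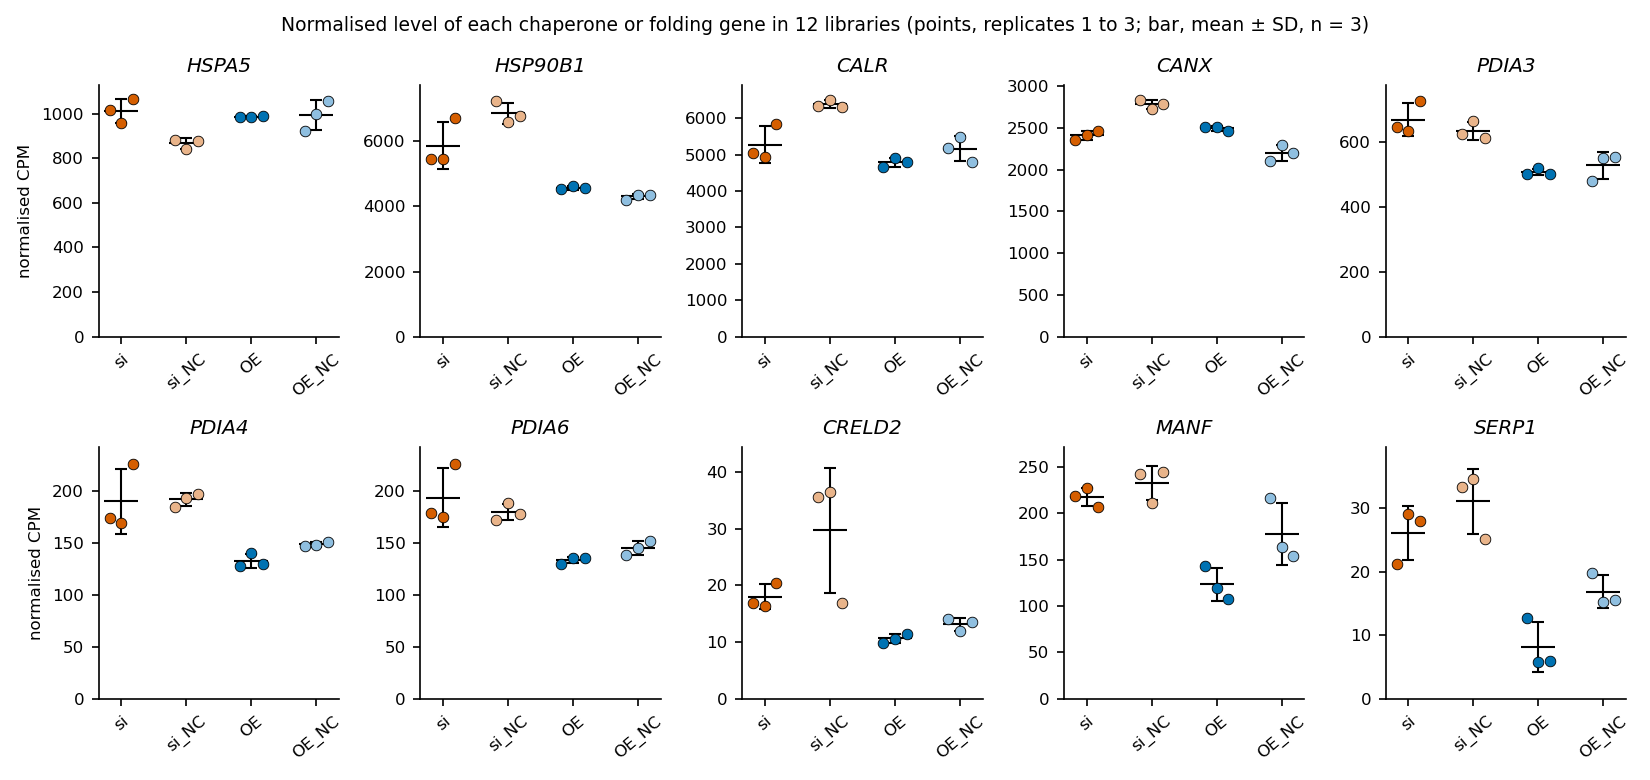
Normalised CPM (y axes, from 0) of the 10 genes in the si, si_NC, OE and OE_NC groups (x axes), with a point per library and the mean ± SD of 3 libraries. HSP90B1 is lower in all 6 plasmid libraries than in all 6 interference libraries, HSPA5 is lowest in si_NC, and SERP1 is lowest in OE.

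In interference, HSPA5 stood higher and the abundant chaperones CALR, CANX and HSP90B1 lower than in the negative control, but no gene of the 10 was called. A gene counted as called where its adjusted p, corrected over all 16300 genes tested (17993 for limma), was under 0.05. HSPA5 stood at 1016, 958 and 1063 CPM in si and at 879.5, 839.8 and 878 CPM in si_NC. The groups did not overlap, and the fitted log2 change was 0.23 ± 0.07 (SE; edgeR adjusted p = 0.0813), which is 1.17-fold. CALR stood at 5036, 4947 and 5851 CPM in si and at 6326, 6505 and 6314 CPM in si_NC, again without overlap (log2 change −0.27 ± 0.07, edgeR adjusted p = 0.059). CANX, at 2357, 2414 and 2457 CPM against 2839, 2729 and 2783 CPM, had a log2 change of −0.21 ± 0.06 (edgeR adjusted p = 0.0664). HSP90B1 measured 5447, 5461 and 6709.7 CPM in si and 7229, 6598 and 6776 CPM in si_NC, so the groups overlapped through si replicate 3 (log2 change −0.23 ± 0.08, edgeR adjusted p = 0.128). In bulk RNA, fewer cells of a type and less RNA per cell cannot be told apart.

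CRELD2, a secreted protein induced when folding fails, had the largest fitted difference of the 10 in interference. Its size moved with the control library left out. Its levels were 17.0, 16.5 and 20.5 CPM in si and 35.7, 36.6 and 16.9 CPM in si_NC, so si_NC replicate 3 lay among the si libraries. The log2 change was −0.72 ± 0.21 (edgeR adjusted p = 0.076), and −1.02 without si_NC replicate 3 (edgeR adjusted p = 0.00162). It was −0.56 without si_NC replicate 2 (edgeR adjusted p = 0.133) and −0.57 without si_NC replicate 1 (edgeR adjusted p = 0.294). The 3 isomerases, MANF and SERP1 had log2 changes between −0.25 and 0.11 with edgeR adjusted p from 0.554 to 0.952. For PDIA4 the 95% interval was −0.21 to 0.18 and for SERP1 −0.74 to 0.23.

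EdgeR thus called 0 of the 10 genes in interference, where it called 2.54 percent of all genes tested (0.92 percent higher, 1.62 percent lower). At an unadjusted p under 0.05 there were 5 (1 higher, 4 lower), against 18.9 percent of all genes (9.03 percent higher, 9.88 percent lower). DESeq2 called 4 (HSPA5, CALR, CANX and CRELD2), against 6.9 percent, and limma on log2(RPKM + 1) called HSPA5 alone, against 1.73 percent. Levels did not overlap for 3 genes, against 20.8 percent of all genes (10.2 percent above, 10.6 percent below). The median log2 change of the 10 was −0.15, beside 0.025 over all genes tested. By library totals that median was 0.10, and the calls over all genes were 298 higher and 106 lower, against 150 and 264 as reported. HSPA5 was then called (log2 change 0.31, edgeR adjusted p = 0.0254). With the offset for exon length, a correction described with SERP1 and MANF, they were 175 and 918. The si replicate 3 library held the highest si level of 8 of the 10 genes, all but MANF and SERP1. The share of all genes that peaked in it was not computed, so a trait of the 10 cannot be told from one of the library. From the 10 came 1.77 percent of its counts, against 1.54 percent in each of the other 2 si libraries. Without si replicate 3, edgeR called HSP90B1 (log2 change −0.34, adjusted p = 0.00983) and CALR (−0.36, adjusted p = 0.0113). PDIA6 then moved from 0.11 to −0.02 and PDIA4 from −0.01 to −0.16. Without si_NC replicate 2, edgeR called CANX (−0.23, adjusted p = 0.0394).

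**Figure D2:**
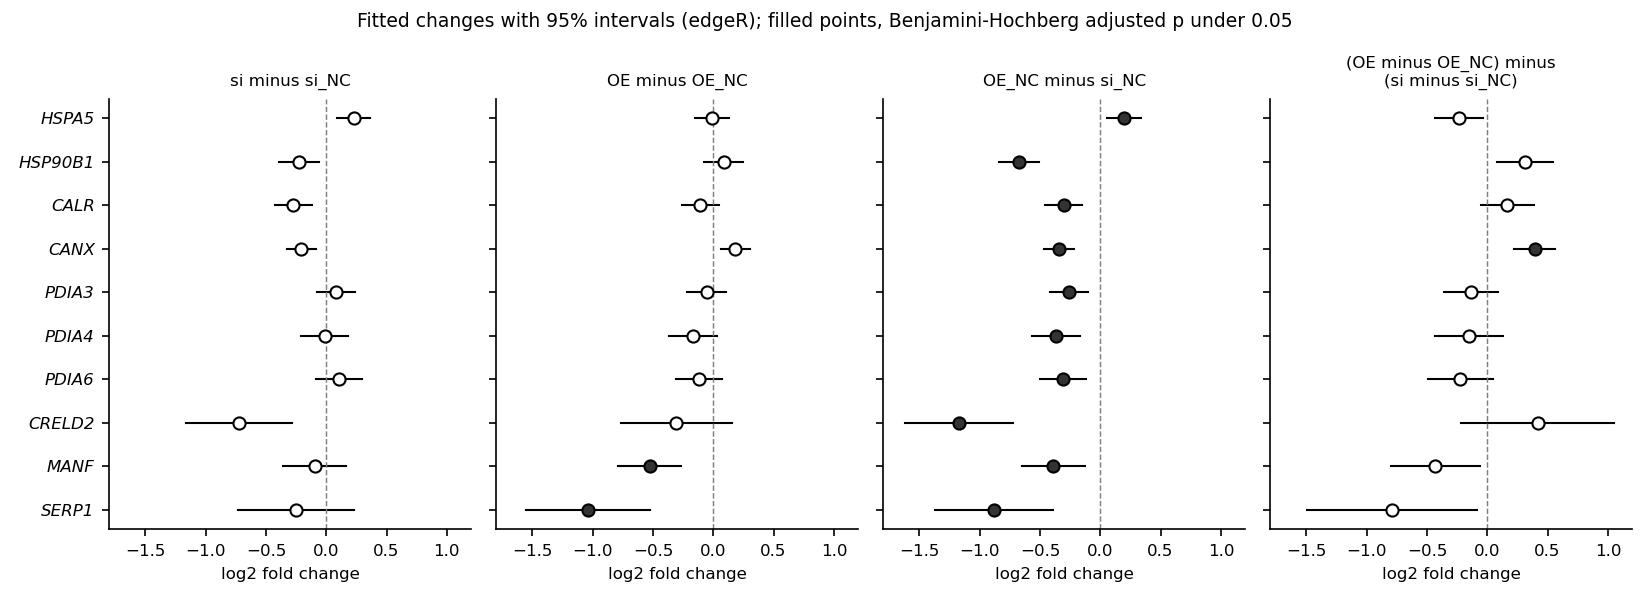
Fitted log2 fold change (x axes) with its 95% interval for each of the 10 genes (y axis) in 4 comparisons, from edgeR. Filled points passed the adjusted threshold: none in si minus si_NC, MANF and SERP1 in OE minus OE_NC, all 10 in OE_NC minus si_NC, and CANX in the difference of the 2 changes.

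With the HGFAC plasmid, SERP1 and MANF fell and the other 8 genes did not pass the threshold. SERP1, also called RAMP4, measured 12.7, 5.84 and 6.01 CPM in OE and 19.9, 15.2 and 15.5 CPM in OE_NC. Every OE library lay below every OE_NC library, and OE replicates 2 and 3 were the lowest of all 12. The log2 change was −1.04 ± 0.24, which is 0.487-fold (edgeR adjusted p = 0.0322). MANF measured 143, 119 and 108 CPM in OE and 216, 164 and 154 CPM in OE_NC, a log2 change of −0.53 ± 0.12 or 0.694-fold (edgeR adjusted p = 0.0325), again without overlap.

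Both genes are short, and short genes as a class were lower in OE. SERP1 has 821 exon bases and MANF 819. The 1933 tested genes under 1000 exon bases had a median log2 change of −0.28, and edgeR called 8.54 percent of them lower, against 2.25 percent of all genes. Genes of 5000 exon bases or more had a median of 0.11. With an offset that removes each library's trend on exon length, neither gene was called (SERP1 −0.77, edgeR adjusted p = 0.0939; MANF −0.26, edgeR adjusted p = 0.179). Both calls also ended without OE replicate 2 (SERP1 −0.85, MANF −0.51), OE replicate 3 (−0.86, −0.43), OE_NC replicate 1 (−0.92, −0.37) or OE_NC replicate 2 (−1.12, −0.59). Both kept their calls without OE replicate 1 (SERP1 −1.52, MANF −0.66) and OE_NC replicate 3 (−1.11, −0.64).

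Among the chaperones, CANX stood higher in every OE library, at 2505, 2514 and 2463 CPM against 2102, 2293 and 2194 CPM. Its log2 change of 0.18 ± 0.06 did not pass edgeR's test (adjusted p = 0.0735) and passed that of DESeq2 (adjusted p = 0.0214). CANX has 5018 exon bases, and genes of 5000 or more had a median log2 change of 0.11, with 4.69 percent of them called higher. HSP90B1 was also without overlap, at 4525, 4622 and 4557 CPM against 4207, 4356 and 4356 CPM, with a log2 change of 0.09 (95% interval −0.08 to 0.25). HSPA5 measured 986, 983 and 991 CPM in OE and 921, 999 and 1056 CPM in OE_NC, so OE lay inside the spread of its control (log2 change −0.01, 95% interval −0.15 to 0.13). CALR had a log2 change of −0.11 (95% interval −0.26 to 0.05). Of the isomerases, PDIA4 (128, 139.7 and 129.8 against 147, 148 and 151 CPM) and PDIA6 (130.1, 136 and 135 against 138, 145 and 152 CPM) lay below OE_NC in all libraries, with log2 changes of −0.17 and −0.12 that did not pass edgeR's test (adjusted p = 0.308 and 0.459). PDIA3 had a log2 change of −0.06, and CRELD2, at 9.87, 10.6 and 11.5 against 14.1, 11.9 and 13.6 CPM, one of −0.31 (edgeR adjusted p = 0.419).

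EdgeR called 2 of the 10 genes in OE, both lower, where it called 4.47 percent of all genes (2.22 percent higher, 2.25 percent lower). At an unadjusted p under 0.05 there were 3 (CANX higher, SERP1 and MANF lower), against 22.9 percent (11.1 percent higher, 11.8 percent lower). With scaling by library totals the lower calls over all genes were 653 of 812, against 366 of 728 as reported, and SERP1 and MANF stayed called. With the length offset they were 146 of 539. DESeq2 called 3 of the 10 genes (9.48 percent of all genes), and limma on log2(RPKM + 1) called 2 (2.66 percent). Levels did not overlap for 7 genes, 2 above and 5 below, against 33.3 percent of all genes (17.4 percent above, 16 percent below). The median log2 change of the 10 was −0.11, beside −0.0046 over all genes tested.

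**Figure D3:**
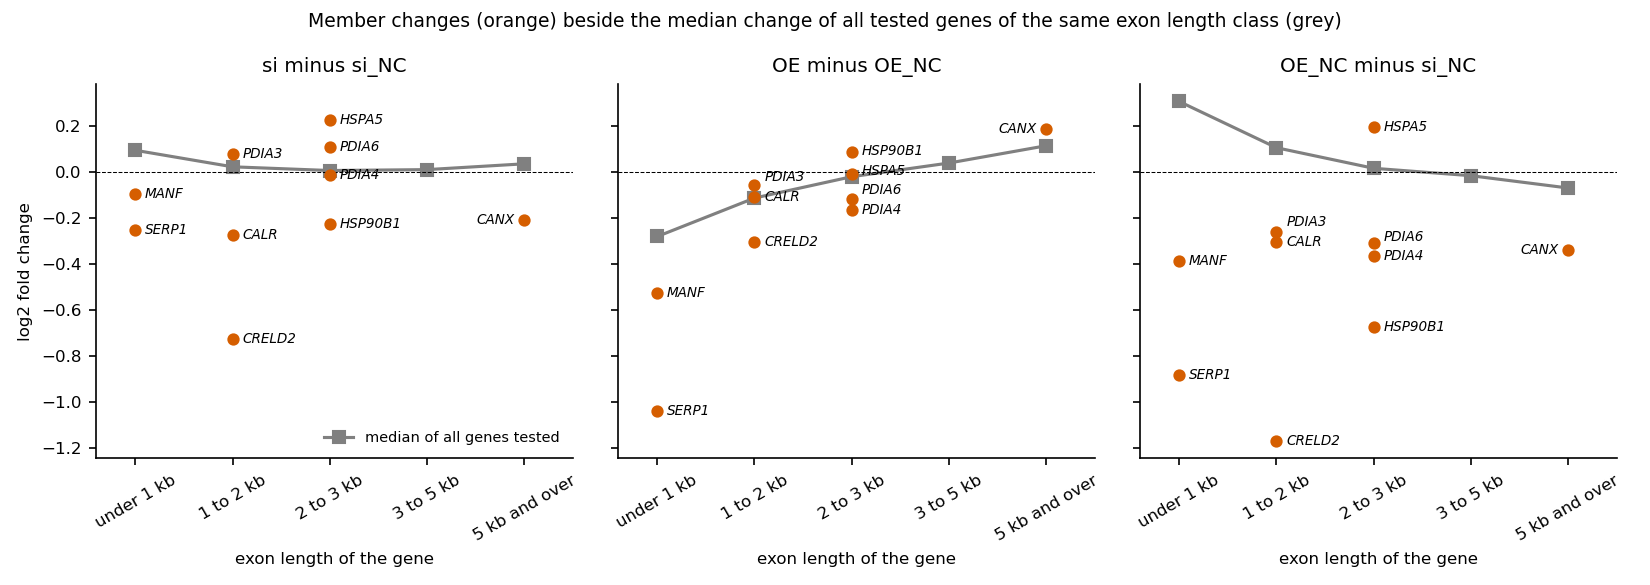
Log2 fold change (y axis) of the 10 genes (orange) beside the median of all tested genes of the same exon length class (grey squares; x axis, exon bases), for 3 comparisons. Under 1 kb the grey median is −0.28 in OE minus OE_NC and 0.30 in OE_NC minus si_NC, and SERP1 and MANF lie below it in all 3.

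All 10 genes differed between OE_NC and si_NC by edgeR: 9 were lower in the plasmid control and HSPA5 was higher. HSP90B1 measured 4207, 4356 and 4356 CPM in OE_NC against 7229, 6598 and 6776 CPM in si_NC, a log2 change of −0.67 ± 0.08 (edgeR adjusted p = 0.000107). CRELD2 stood at 14.1, 11.9 and 13.6 CPM against 35.7, 36.6 and 16.9 CPM (log2 change −1.17 ± 0.21, edgeR adjusted p = 0.00206). CANX had a log2 change of −0.34 ± 0.06 (edgeR adjusted p = 0.00129), and CALR, at 5196, 5490.2 and 4811 CPM against 6326, 6505 and 6314 CPM, one of −0.30 ± 0.07 (edgeR adjusted p = 0.00961). SERP1 had a log2 change of −0.88 ± 0.23 (edgeR adjusted p = 0.0154). HSPA5 went the other way, at 921, 999 and 1056 CPM against 879.5, 839.8 and 878 CPM (log2 change 0.20 ± 0.07, edgeR adjusted p = 0.0487).

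The 3 isomerases moved by like amounts between the controls. PDIA4, at 147, 148 and 151 CPM against 185, 193 and 197 CPM, fell by 0.37 on the log2 scale (edgeR adjusted p = 0.0132). PDIA6 had a log2 change of −0.31 (138, 145 and 152 against 173, 189 and 178 CPM) and PDIA3 of −0.26 (481, 552 and 556 against 626, 665 and 612 CPM), each with an edgeR adjusted p of 0.0244. MANF had a log2 change of −0.39 (edgeR adjusted p = 0.0373) and was the only gene of the 10 whose control libraries overlapped, since OE_NC replicate 1 stood at 216 CPM and si_NC replicate 2 at 211 CPM. SERP1 and MANF were lower in OE_NC although genes under 1000 exon bases had a median log2 change of 0.30 in this comparison. With the length offset, MANF was at −0.70 (edgeR adjusted p = 0.000415) and SERP1 at −1.19 (edgeR adjusted p = 0.00254), while HSPA5 at 0.13 was no longer called (edgeR adjusted p = 0.157).

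Beside these 10 of 10, edgeR called 19.7 percent of all genes between the controls, 9.49 percent higher (1 of the 10) and 10.2 percent lower (9 of the 10). At an unadjusted p under 0.05 it was 34.1 percent (17.2 percent higher, 16.9 percent lower). Levels did not overlap for 9 of the 10, 1 above and 8 below, against 35.8 percent of all genes (18.4 percent above, 17.4 percent below). The median log2 change was −0.35, beside 0.020 over all genes tested. DESeq2 called 10 (22.9 percent of all genes) and limma on log2(RPKM + 1) called 4 (16.8 percent): HSPA5, HSP90B1, CANX and CRELD2. By library totals 944 of 3242 calls over all genes were lower, against 1668 of 3215 as reported, and 7 of the 10 genes stayed called (not PDIA3, PDIA6 and MANF). Those 3 were also not called among genes of at least 5 CPM in 3 libraries (−0.21, −0.25 and −0.33), and in a fit of the 2 control groups alone PDIA3 (−0.25), MANF (−0.38) and HSPA5 (0.20) were not. With the length offset 2757 of 3794 were lower. HSP90B1, CALR, CANX, PDIA4 and CRELD2 stayed called without any single library. The call of HSPA5 ended without si_NC replicates 1, 2 or 3 (0.20, 0.17 and 0.20) and without OE_NC replicates 2 or 3 (0.19 and 0.16). That of MANF ended without si_NC replicates 1 or 3 (−0.36 and −0.35) and OE_NC replicates 2 or 3 (−0.33 and −0.29). PDIA6 lost its call without si_NC replicates 2 or 3 (−0.28 and −0.32) and OE_NC replicates 1 or 2 (−0.27 and −0.31). SERP1 lost it without si_NC replicate 1 (−0.83) and OE_NC replicates 2 or 3 (−0.81 and −0.82), and PDIA3 without si_NC replicate 2 (−0.23) and OE_NC replicate 1 (−0.19). HSPA5 was also lost with a replicate block (edgeR adjusted p = 0.0517), with the size factors of DESeq2 in edgeR (edgeR adjusted p = 0.0574) and with no filter on low counts (edgeR adjusted p = 0.127). The controls differ in what was transfected, and any difference in handling cannot be told apart from it. The interference comparison shares si_NC with this one, and the plasmid comparison shares OE_NC.

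The difference between the plasmid and the interference change was tested directly. EdgeR called 1 of the 10 genes, CANX, against 8.41 percent of all genes (4.29 percent higher, 4.12 percent lower). CANX had a log2 change of 0.18 in OE and −0.21 in si, a difference of 0.39 ± 0.08 (edgeR adjusted p = 0.0103). That call held without any single library, with log2 differences from 0.35 to 0.41. By library totals the difference was 0.26 (edgeR adjusted p = 0.0545), where the median of all genes moved from −0.025 to −0.16 and calls over all genes from 700 higher and 671 lower to 265 and 1269. With the length offset they were 1365 and 447, and CANX stayed called (0.39, edgeR adjusted p = 0.00616). DESeq2 called CANX alone (12 percent of all genes), while limma on log2(RPKM + 1) called HSPA5 alone (adjusted p = 0.0312; 7.54 percent). At an unadjusted p under 0.05, edgeR had HSP90B1 and CANX higher and HSPA5, MANF and SERP1 lower, 5 of 10 against 24.4 percent of all genes (12 percent higher, 12.4 percent lower). HSP90B1 passed without si replicate 3 (0.41, edgeR adjusted p = 0.00456), CRELD2 without si_NC replicate 3 (0.70 against 0.42 with it) and SERP1 without OE replicate 1 (−1.26 against −0.79).

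Ratios within a library do not depend on scaling between libraries, and 2 of them were computed after the levels had been seen. They are given as descriptions with no test. HSP90B1 over HSPA5, in RPKM, was 4.95, 5.27 and 5.83 in si and 7.59, 7.26 and 7.13 in si_NC. In OE it was 4.24, 4.35 and 4.25, and in OE_NC 4.22, 4.03 and 3.81. The si_NC libraries were thus the highest of the 12 in this ratio, and both plasmid groups lay below both interference groups. CALR over CANX, the soluble and the membrane-bound lectin chaperone, was 4.87, 5.12 and 5.12 in OE, below the 5.37 to 6.48 of the other 9 libraries. CALR has 1914 exon bases and CANX 5018. In OE minus OE_NC the median log2 change was −0.11 for genes of 1000 to 2000 exon bases and 0.11 for those of 5000 or more. The part of this length trend in the ratio was not tested. The 10 genes together held 1.36 ± 0.01 percent of gene counts in OE, 1.41 ± 0.06 in OE_NC, 1.62 ± 0.13 in si and 1.76 ± 0.02 in si_NC (SD, n = 3). Between 84.4 and 88.3 percent of these came from HSP90B1, CALR and CANX, so the sum describes mainly those 3 genes.

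**Figure D4:**
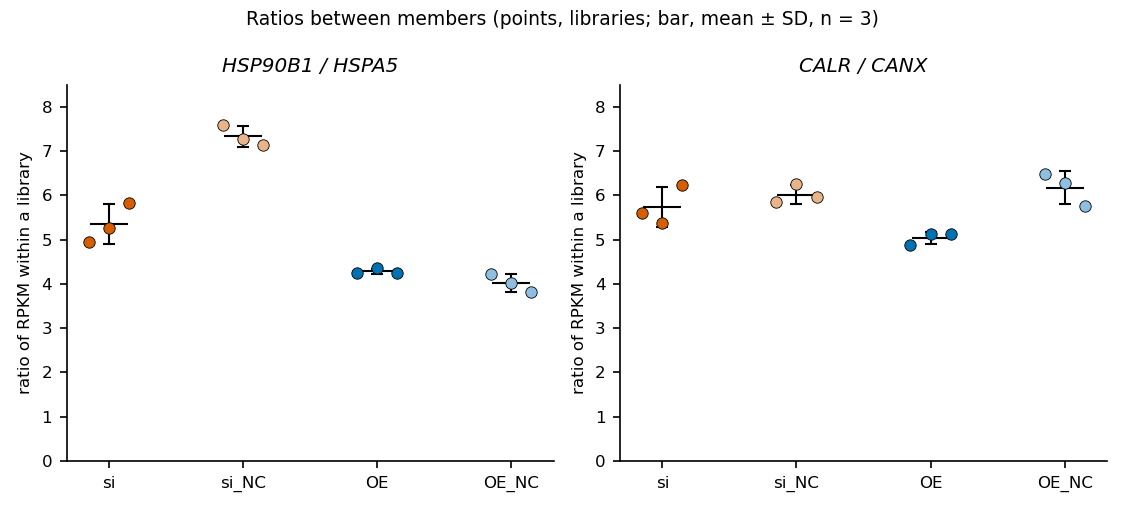
Ratio of RPKM within each library (y axes, from 0) for HSP90B1 over HSPA5 and CALR over CANX in the 4 groups (x axes), with a point per library and the mean ± SD of 3 libraries. The first ratio is 7.33 ± 0.24 in si_NC and 4.02 ± 0.21 in OE_NC, and the second is lowest in OE.

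HSPA5 did not follow the other 9 genes across libraries. Its Pearson correlation of log2 CPM with each of them over the 12 libraries was negative, from −0.67 with CALR to −0.09 with PDIA3. These 12 points share groups and scaling, so the values are descriptions and include the differences between groups. Correlations within groups were not computed. In si replicate 3, HSPA5 and all of the others but MANF and SERP1 stood at their highest si level. In OE_NC replicate 3, by contrast, HSPA5 was at its highest in that group and CALR at its lowest. Among 8833 named genes of at least 5 CPM, those most like HSPA5 were BMP1 (r = 0.90), a protease that processes procollagen, ASL (0.90), NDRG1 (0.89), ADAMTSL1 (0.89) and SRL (0.89). BMP1 shared the low si_NC level, at 40.02 CPM on average against 50.2 to 50.7 in the other groups. Those most like SERP1 were SPTLC2 (0.97), an enzyme of sphingolipid synthesis in the endoplasmic reticulum, the phosphate carrier SLC25A3 (0.97), HOXA5 (0.96), TTLL12 (0.96) and SDF2L1 (0.96), a cochaperone of HSPA5. MANF took place 28 in that order (r = 0.94). SDF2L1, with 862 exon bases, averaged 3.8 CPM in OE, 6.89 in OE_NC, 11.7 in si and 11.2 in si_NC. Its log2 change was −0.85 in OE (edgeR adjusted p = 0.0562) and −0.70 between the controls (edgeR adjusted p = 0.041).

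Other genes of the pathway were read from 7 lists with 145 tested genes. In si, edgeR called 2 of these higher and 5 lower, beside 0.92 and 1.62 percent of all genes. The J protein DNAJC1 fell from 81.0 ± 4.86 to 64.9 ± 0.723 CPM (log2 −0.32), and ERP29, a folding factor of the lumen, from 117 ± 5.5 to 91.6 ± 4.96 CPM (log2 −0.35). SSR1, a subunit of the translocon-associated complex, fell from 315 ± 11 to 260.5 ± 3.0 CPM (log2 −0.27). TMBIM6, a membrane protein that restrains the stress sensor ERN1, rose from 111 ± 21.5 to 161 ± 5.03 CPM (log2 0.53). In the cytosol HSP90AA1 rose (log2 0.36) while HSP90AB1 and HSPA1A fell (log2 −0.36 and −0.34). List medians ran from −0.09 for 13 cytosolic and mitochondrial paralogs to 0.15 for 18 sensors and transcription factors of the response, of which 14 were positive and 1 was called. Over all genes the median was 0.025, and 8799 of 16300 were positive. EdgeR called 0 of 10 genes of glycan trimming (1 lower at an unadjusted p under 0.05; 0 by DESeq2 and by limma) and 0 of 23 genes of degradation (4 higher and 5 lower at an unadjusted p under 0.05; 4 by DESeq2, 3 by limma).

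In OE, edgeR called 5 of the 145 pathway genes higher and 4 lower, beside 2.22 and 2.25 percent of all genes. The translocon list held all 4 falls, with SSR4 (81.2 ± 7.84 to 56.7 ± 5.12 CPM, log2 −0.52), the signal peptidase subunit SPCS1 (log2 −0.42), SEC61A2 (log2 −0.38) and, named after its values were seen, SSR2 (log2 −0.38), and 1 rise, that of SEC62 (1071 ± 15.3 to 1285 ± 27 CPM, log2 0.26). Its median was −0.17 over 33 genes, the lowest of the 7 lists. SSR4 and SSR2 averaged 54.0 and 22.6 CPM in si_NC, and edgeR called both higher in OE_NC than in si_NC (log2 0.59 and 0.39). SPCS1 (log2 0.02) and SEC61A2 (log2 0.23) were not called between the controls. The part of exon length in these falls was not tested. The calcium-binding chaperone CALU rose from 2974 ± 135 to 3591 ± 52.5 CPM (log2 0.27), with DNAJC1 (log2 0.26), TXNDC12 (log2 0.30) and UBXN4 (log2 0.24), a membrane protein of degradation. EdgeR called 0 of the 18 sensors and transcription factors (2 higher at an unadjusted p under 0.05; 0 by DESeq2 and by limma). The stress factor DDIT3, or CHOP, averaged 343 ± 15.7 CPM with the HGFAC plasmid and 288 ± 22.2 CPM without it (edgeR adjusted p = 0.204). For ATF4, a factor of the same stress branch, the averages were 439 ± 11.2 and 429 ± 4.04 CPM (edgeR adjusted p = 0.785). It also called 0 of 10 glycan trimming genes (1 higher and 1 lower at an unadjusted p under 0.05; 0 by DESeq2 and by limma) and 0 of 13 paralogs (1 lower at an unadjusted p under 0.05; 1 by DESeq2, 0 by limma).

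Between the controls, 14 of the 145 were called higher and 37 lower, beside 9.49 and 10.2 percent of all genes. Their median was −0.07, beside 0.020 over all genes. DNAJB11, the J protein that recruits HSPA5 to its clients, stood at 203 ± 15.7 CPM in OE_NC against 330.5 ± 17.1 in si_NC (log2 −0.71, edgeR adjusted p = 6.24e-05). The further HSPA5 partners DNAJC3 (log2 −0.50) and HYOU1 (log2 −0.32) were lower too. ERP29 (log2 −0.55), TMX3 (log2 −0.62), the glucosyltransferase of quality control UGGT1 (log2 −0.43) and VCP, the ATPase that extracts clients for degradation (log2 −0.48), were also lower. Of 10 glycan trimming genes 6 were lower and 1, GANAB, was higher (log2 0.30). The translocon list held 4 higher and 4 lower, with SSR4 (log2 0.59), SEC61G (log2 0.45) and SSR2 (log2 0.39) higher and SRP14 (log2 −0.43) lower. Among the other lumenal chaperones 2 were higher, CALR3 (log2 0.56) being 1 of them, and 7 lower. In the list of sensors 4 were higher and 3 lower. ATF4 (429 ± 4.04 against 306 ± 11.2 CPM, log2 0.49), its target TRIB3 (13.3 ± 2.73 against 5.52 ± 2.14 CPM, log2 1.27) and TMBIM6 (log2 0.74) were higher, and the stress sensor EIF2AK3 was lower (log2 −0.52). The other 3 called, named after their values were seen, were DDIT3 (log2 0.45), MBTPS1 (log2 −0.42) and PPP1R15B (log2 −0.35). Chosen after its values were seen, XBP1, a transcription factor of folding genes, had log2 changes of −0.24 in si (edgeR adjusted p = 0.321), 0.09 in OE (edgeR adjusted p = 0.714) and −0.24 between the controls (edgeR adjusted p = 0.193). The counts do not tell its spliced from its unspliced form.

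The difference of the 2 changes was called for 23 pathway genes, 12 higher and 11 lower, beside 4.29 and 4.12 percent of all genes. DNAJC1, which fell in si and rose in OE, had a difference of 0.58 ± 0.10 (edgeR adjusted p = 0.00363). ERP29 (0.54), SRP14 of the signal recognition particle (0.50), SEC62 (0.48), DNAJC3 (0.48) and UBXN4 (0.45) also had positive differences, as CANX did. SSR4 (−0.74), TMBIM6 (−0.65), SPCS1 (−0.60), the peroxiredoxin PRDX4 (−0.50) and P4HB, the founding disulphide isomerase (−0.34), had negative ones.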

How the data were processed

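RNA from 12 libraries was made into stranded libraries from polyadenylated RNA, per the labels. The authors deposited raw counts per gene and RPKM. Trimming with fastp 0.23.0 and counting with featureCounts (Subread 1.5.1) are listed in the submitters' processing notes. For the aligner, genome build, counting strand and handling of multi-mapping reads, nothing is given in the sources used here. The deposited RPKM equalled counts over exon length and column total (relative difference at most 6.6e-14). Groups came from the titles, and 0 columns were unmapped. The 2 entries that name no gene (0.0868 to 0.116 percent of counts) were left out. The main test was that of edgeR 4.0.16 (R 4.3.3) on the counts, after TMM scaling and filterByExpr (minimum count 10, total 15; 16300 genes, all 10 members among them). It was a quasi-likelihood F test on all 12 libraries with a mean per group (8 residual degrees of freedom), and Benjamini-Hochberg adjustment over all genes (threshold 0.05). Standard errors are the log2 change over the root of F. Alternatives used DESeq2 1.42.0 and limma 3.58.1, the latter on log2(RPKM + 1) or log2(RPKM + 0.1). The limma fits took the 17993 genes that passed a filter of 0.1 RPKM, and their shares and adjusted p are over those. All 10 members were found in a reference gene table, and 149 of 151 listed pathway genes in the count table. The members, lists and tests were chosen with earlier results of these data known. The rule named all members, up to 4 called genes per list and comparison (not all are named) or the 2 most abundant, and the 5 genes most like HSPA5 and SERP1 by correlation. Of nonzero counts 67.4 percent were even, so halved counts were tried. The procedure was tested on simulated data with the same dispersion for every gene and no trend on exon length. That test therefore does not cover the length trend of these libraries. Sequences were not used here.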

Additional observations from a re-analysis of the deposited data

Results flagged for a closer look

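The change of CANX, the membrane-bound lectin chaperone, differed between the plasmid and the interference experiment. The difference was 0.39 on the log2 scale in a direct test of the 2 changes (edgeR adjusted p = 0.0103; 3 libraries in each of 4 groups). All 3 OE libraries lay above all 3 OE_NC libraries, and all 3 si libraries lay below all 3 si_NC libraries. Over all genes tested, 17.4 percent lay wholly above in OE and 10.6 percent wholly below in si. For genes of 5000 exon bases or more, the class of CANX, the median difference was 0.08 and 6.51 percent were called higher. The call ended with library totals (0.26, edgeR adjusted p = 0.0545) and in both limma fits (0.26 each, limma adjusted p = 0.0523 on log2(RPKM + 1) and 0.12 on log2(RPKM + 0.1)). It held in the 7 other planned fits of all libraries and without any single library. Neither change passed edgeR's test in its own experiment (adjusted p = 0.0735 in OE and 0.0664 in si). For the difference, edgeR called 1 of the 10 genes, against 8.41 percent of all genes tested.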

How the results depend on the processing

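In interference, where 0 of the 10 genes were called as reported, the count was 1 with library totals, 4 with DESeq2, 3 with no filter on low counts, 1 with at least 5 CPM in 3 libraries, 1 with limma on log2(RPKM + 1), 4 with an offset for exon length and 3 without si replicate 3 and si_NC replicate 2, a refit chosen after seeing the data. It ran from 0 to 2 without 1 library. In OE, 2 as reported, it was 0 with limma on log2(RPKM + 0.1), 0 with the length offset, and 0 to 2 without 1 library. For the difference, 1 as reported, it was 2 with library totals, 4 with no filter, 2 with at least 5 CPM, 0 with limma on log2(RPKM + 0.1), 2 with the length offset, and 1 to 2 without 1 library. Between the controls, 10 as reported, it was 4 with either limma fit and 6 to 8 without 1 library. The causes were not tested. Calls over all genes also moved between fits, and not every fit has its count over all genes given here. The counts of the 10 are therefore not read as a result about these genes. Signs changed only for small values: PDIA4 in si (0.064 with library totals, 0.015 with at least 5 CPM, 0.0525 and 0.0529 with limma on RPKM plus 1 and plus 0.1, −0.16 to 0.055 without 1 library), PDIA6 in si (−0.023 to 0.17 without 1 library), HSPA5 in OE (0.015 with the length offset, −0.071 to 0.0195 without 1 library) and PDIA3 with the length offset (0.034 in OE, 0.011 for the difference). Of 740 refitted gene values 638 kept their direction and their side of the threshold.

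The count over all genes called in si was 1125 with DESeq2, 1208 with no filter, 8 in a fit of these groups alone, 47 with limma on log2(RPKM + 0.1), 1093 with the length offset and 56 to 1083 without 1 library, against 414. In OE it was 1546, 1679, 1621, 81, 539 and 19 to 758, against 728, and 478 with limma on log2(RPKM + 1). For the difference it was 768 with limma on log2(RPKM + 0.1) and 588 to 2152 without 1 library, against 1371. Between the controls it was 1882 to 2833 without 1 library, against 3215, with the lowest count without OE_NC replicate 2.

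Whether the replicate numbers pair the samples cannot be settled with 3 libraries per group. Deviations of same-numbered libraries correlated at −0.257 to 0.092 between si and si_NC and at −0.015 to 0.045 between OE and OE_NC. For differently numbered libraries the values were −0.185 to 0.332 and −0.035 to 0.048. With a replicate block edgeR called 0 of the 10 genes in si, 2 in OE, 1 for the difference and 9 between the controls. SERP1 and CRELD2 had the fewest counts of the 10 genes (195 to 1270 and 356 to 1090 per library), and whether depth limits their tests was not tested.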
